A study of Homo sapiens with 6 samples.

Results

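Genes of 9 secreted ligands of the transforming growth factor beta (TGF-beta) family and of the activin antagonist follistatin (FST) were examined in ONS-76 cells after knockdown of the histone demethylase KDM1A. BMP2, the activin subunit gene INHBA and FST rose, while BMP4, BMP6, BMP7, INHBB, TGFB1, TGFB2 and TGFB3 did not pass the test. The members were BMP2, BMP4, BMP6, BMP7, INHBA, INHBB, TGFB1, TGFB2, TGFB3 and FST, taken by gene symbol. Every probe set that the platform annotation assigns to 1 of these symbols and to no other gene was used. This gave 26 probe sets for the 10 genes, of 54613 probe sets tested and of 19775 genes that are named alone by at least 1 probe set. A probe set is a group of short probes on the array that reports on 1 transcript or on several transcripts of a gene.

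The ONS-76 line was established from a human medulloblastoma, a malignant tumor of the cerebellum. RNA from 3 cultures transfected with an siRNA against KDM1A (siKDM1A replicates a, b and c) and from 3 mock-transfected cultures, which received the transfection reagent alone (control replicates a, b and c), was hybridized to 6 Affymetrix U133 Plus 2.0 arrays. The methods give 1 siRNA at 10 nM, 3 independent transfections per group and 72 h until harvest, whereas the labels give 48 h and name the target as KDM5A/LSD1. The control cells carried no siRNA at all, so the loss of KDM1A and the delivery of an siRNA cannot be told apart as sources of any difference given here.

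The values were the deposited log2 signals after robust multi-array averaging (RMA), on which a difference of 1 unit is a 2-fold change, and the median signal of the arrays lay between 5.09 and 5.16. KDM1A itself had log2 values of 9.50, 9.57 and 9.49 on the control arrays and 6.25, 6.34 and 6.31 on the siKDM1A arrays. It was 9.33-fold lower after knockdown (limma adjusted p = 7.1e-07), and none of the 5 KDM5A probe sets passed the test (brightest probe set log2 fold change -0.27, limma adjusted p = 0.138). Of 9 markers of medulloblastoma and cerebellar precursors, BARHL1, ZIC1, ZIC2 and MYCN lay above the median of every array, and OTX2 and EOMES lay under every array's lower quartile (3.63 to 3.70). Above the median of every array were also 3 of 7 neuronal markers and 3 of 6 neural stem cell and glial markers. Of 5 epithelial markers 4, of 6 mesenchymal markers 4 and of 5 blood and endothelial markers 1 (PECAM1) lay above the median of every array. For comparison, 12519 of all 19775 genes lay above the median of every array on their brightest probe set, and 2319 lay under every array's lower quartile. These levels therefore do not identify a cell type. Over all genes, 3.45% were higher and 5.46% lower in siKDM1A cells (brightest probe set, limma adjusted p under 0.05). By the same rule, among all 38 markers examined, MAP2, COL3A1 and PECAM1 rose and ZIC1, ZIC2, SOX2 and KRT19 fell. Of these the mesenchymal collagen gene COL3A1 moved most, with log2 values of 4.66, 4.44 and 4.82 in control and 7.0, 6.77 and 6.52 in siKDM1A cells. The part of these marker changes in the results on the ligands was not tested, and in RNA from whole cultures more cells with a transcript and more transcript per cell cannot be told apart.

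The ligands of this family are secreted dimers that bring together type I and type II serine-threonine kinase receptors, and the active receptors phosphorylate SMAD proteins that enter the nucleus. Bone morphogenetic proteins (BMPs) act mainly through SMAD1, SMAD5 and SMAD9, whereas activins and TGF-betas act mainly through SMAD2 and SMAD3. TGF-betas are secreted in a latent complex from which they have to be released, and follistatin binds activins, and more weakly some BMPs, and keeps them from their receptors. In the developing cerebellum, BMPs oppose the Sonic hedgehog-driven proliferation of granule neuron precursors, from which a subgroup of medulloblastomas arises.

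Over the 26 probe sets, 7 were higher in siKDM1A cells (limma adjusted p under 0.05, with the Benjamini-Hochberg procedure applied to all 54613 probe sets), none was lower and 19 did not pass the test. Of all probe sets tested, 2.18% were higher and 3.73% lower. All 3 siKDM1A arrays lay above all 3 control arrays for 14 member probe sets and below them for 0, compared with 11.1% above and 13.4% below among all probe sets. The median log2 fold change of the member probe sets was 0.26, in a range from -0.38 to 2.00, and that of all probe sets was 0.01. With 1 probe set per gene, the one with the highest mean signal, 3 of 10 genes were higher and 0 lower, beside 3.45% higher and 5.46% lower among all genes. By this choice 6 of the 10 genes had siKDM1A arrays entirely above the control arrays and none entirely below, against 13.5% and 18.1% of all genes. Probe sets of 1 gene share their RNA and are not separate evidence, so the count over genes is given beside the count over probe sets. The published study had already reported BMP2 as induced on these same arrays, and the members were chosen with earlier results known. The counts of members beside the shares over all features are therefore a description and no independent support.

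**Figure D1:**
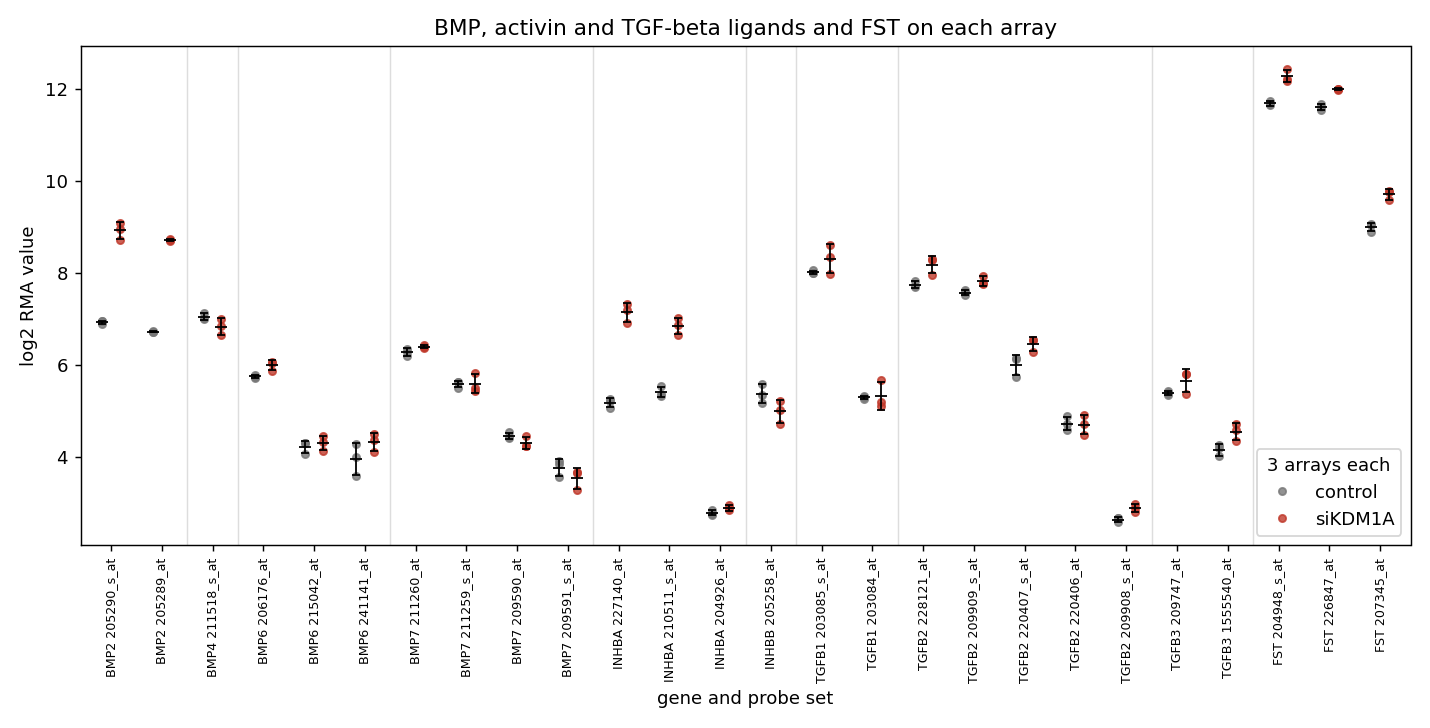
Log2 RMA value (vertical axis) of each of the 26 probe sets of the 10 genes (horizontal axis), on 3 control arrays (grey) and 3 siKDM1A arrays (red), with the mean and SD of each group as bars. The groups of BMP2, of 2 INHBA probe sets and of the 3 FST probe sets stand clear of each other. Narrower gaps, of at most 0.14, separate the groups on some probe sets of BMP6, BMP7, TGFB2 and TGFB3. Those of BMP4, INHBB and TGFB1 overlap. Heights of different probe sets cannot be set against each other.

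Among the BMP genes, BMP2 was the 1 gene that passed the test. BMP2 encodes a ligand best known for inducing bone and for its part in the differentiation of neural precursors. Its brighter probe set, 205290_s_at, had log2 values of 6.88, 6.95 and 6.94 on the control arrays and 8.94, 9.09 and 8.72 on the siKDM1A arrays. The other, 205289_at, had 6.74, 6.71 and 6.71 in control and 8.74, 8.68 and 8.71 in siKDM1A cells. Every siKDM1A array stood clear of every control array on both probe sets, by a gap of 1.77 and 1.94 between the nearest arrays. The log2 fold changes were 1.99 (95% interval 1.76 to 2.23) and 1.99 (1.81 to 2.17), so that the 2 probe sets gave nearly the same size, 3.99-fold and 3.97-fold (limma adjusted p = 3.6e-05 and 9.1e-06). Without any 1 array, the limma adjusted p of either probe set stayed between 0.000109 and 0.000511.

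BMP4, a close relative of BMP2 that binds the same receptors, went the other way in value without passing the test. Its probe set 211518_s_at had log2 values of 7.02, 7.13 and 6.99 in control and 6.64, 6.85 and 7.0 in siKDM1A cells. The groups overlapped, because siKDM1A replicate c lay at the level of the control arrays. The log2 fold change was -0.21 (95% interval -0.46 to 0.03, limma adjusted p = 0.33), an interval that ends far below the change of BMP2.

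BMP6, another ligand of the SMAD1 and SMAD5 branch that is known for the control of hepcidin in the liver, had 3 probe sets. The brightest, 206176_at, had log2 values of 5.72, 5.78 and 5.75 in control and 5.87, 6.07 and 6.04 in siKDM1A cells. All siKDM1A arrays lay above the control arrays, by a gap of 0.09, but the log2 fold change of 0.24 (95% interval 0.04 to 0.44) did not pass the adjusted test (limma adjusted p = 0.171). The other 2 BMP6 probe sets, 215042_at and 241141_at, lay below the median of every array and had log2 fold changes of 0.08 and 0.38 with overlapping groups (limma adjusted p = 0.758 and 0.279).

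BMP7, which is needed for kidney and eye development, had 4 probe sets, none of which passed. The brightest, 211260_at, had log2 values of 6.35, 6.28 and 6.20 in control and 6.39, 6.37 and 6.42 in siKDM1A cells. These groups were separated by a gap of 0.02 on the log2 scale, with a log2 fold change of 0.12 (95% interval -0.07 to 0.31, limma adjusted p = 0.519). The remaining probe sets 211259_s_at, 209590_at and 209591_s_at had log2 fold changes of 0.00, -0.15 and -0.24, so the direction in value differed among the probe sets of this gene. Their 95% intervals all contained 0, and the highest upper bound among the 4 probe sets was 0.31.

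**Figure D2:**
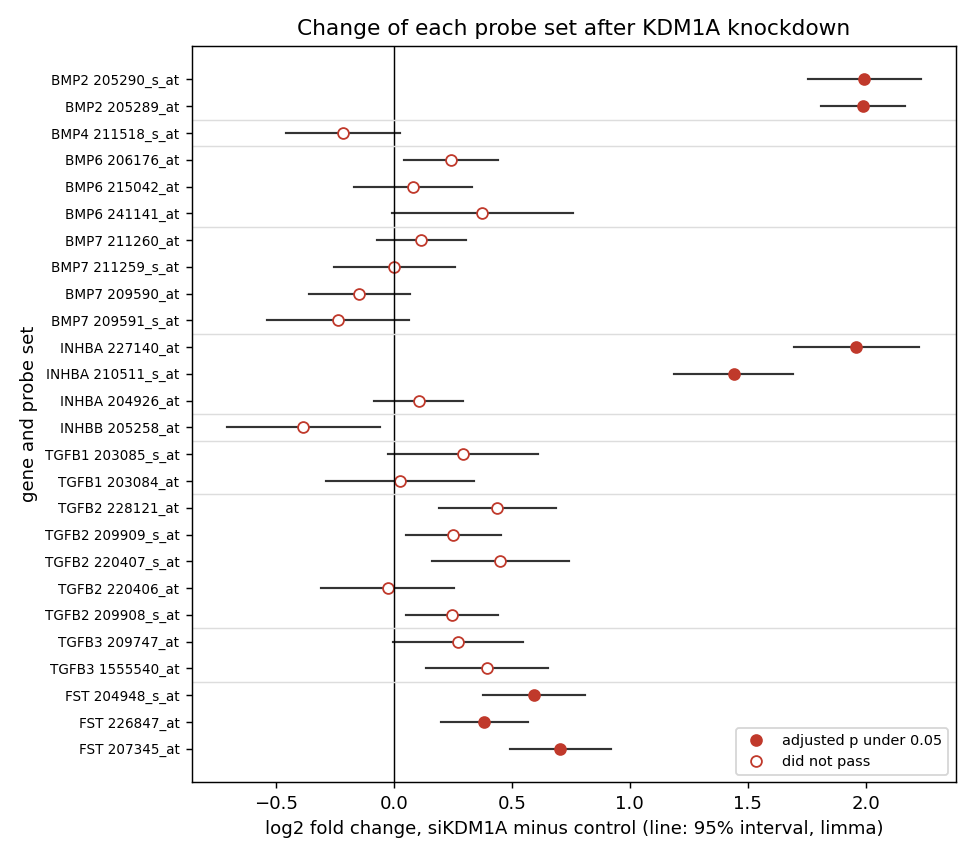
Log2 fold change (siKDM1A minus control, horizontal axis) of each probe set with its 95% interval from limma; filled points had an adjusted p under 0.05. Filled points are those of BMP2, of 2 of 3 INHBA probe sets and of FST, and the other intervals end below a log2 fold change of 0.80.

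INHBA, which encodes the beta A subunit of activin A and inhibin A, rose about as much as BMP2 on its brightest probe set. Probe set 227140_at had log2 values of 5.22, 5.25 and 5.07 in control and 6.91, 7.33 and 7.19 in siKDM1A cells. Probe set 210511_s_at had 5.32, 5.37 and 5.53 in control and 6.66, 6.87 and 7.01 in siKDM1A cells. The control arrays thus lay close to the array median, and all siKDM1A arrays lay above them by gaps of 1.66 and 1.13. The log2 fold changes were 1.96 (95% interval 1.70 to 2.23) and 1.44 (1.19 to 1.69), or 3.89-fold and 2.71-fold (limma adjusted p = 5.9e-05 and 0.000211). The third probe set, 204926_at, lay under every array's lower quartile, with 2.85, 2.74 and 2.77 in control and 2.95, 2.88 and 2.84 in siKDM1A cells. On it the groups overlapped and the log2 fold change was 0.10 (95% interval -0.08 to 0.29, limma adjusted p = 0.569). The probe sets of INHBA thus disagree, and the 2 brighter ones also differed in size, at 1.96 and 1.44. Why they disagree was not tested.

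INHBB encodes the beta B subunit, which forms activin B and can also pair with beta A. Its 1 probe set, 205258_at, had log2 values of 5.59, 5.18 and 5.35 in control and 5.03, 4.72 and 5.21 in siKDM1A cells. The groups overlapped, since siKDM1A replicate c lay above control replicate b. The log2 fold change was -0.38 (95% interval -0.71 to -0.06, limma adjusted p = 0.184), which did not pass and had the opposite sign to that of INHBA.

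RefSeq promoter windows, 300 bases from 250 before to 50 after the annotated transcript start on GRCh38.p14, were held for 8 of the 10 genes and not for BMP2 and BMP7. The window of INHBA, minus strand of chr7:41703041-41703340, is printed because INHBA is the most changed of the genes that have a window, with matches of the motifs searched in capitals. The motifs were the TATA box (TATAAA), an AP-1 site (TGANTCA), the core of the cAMP response element (TGACGT) and the SMAD palindrome (GTCTAGAC), searched on both strands.

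INHBA: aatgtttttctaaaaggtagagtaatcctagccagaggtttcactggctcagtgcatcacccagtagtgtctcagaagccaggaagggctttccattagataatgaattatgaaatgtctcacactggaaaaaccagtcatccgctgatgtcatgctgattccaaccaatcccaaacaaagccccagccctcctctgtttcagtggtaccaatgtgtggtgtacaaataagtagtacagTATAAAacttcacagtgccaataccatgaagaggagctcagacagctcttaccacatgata

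The TATAAA of INHBA starts at position -11 from the annotated start, and the window has a GC content of 43.3%. Of 35116 RefSeq windows of this length, 11.5% hold a TATAAA, 7.71% the AP-1 motif, 7.98% the cAMP element core and 0.202% the SMAD palindrome. No member window held the SMAD palindrome. A match is a stretch of letters and not a measured binding site, and the start that ONS-76 cells use was not measured.

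The 3 TGF-beta genes had mostly higher values after knockdown, and no probe set of them passed the test. TGFB1 encodes the best known of the 3 TGF-beta ligands. Its brighter probe set, 203085_s_at, had log2 values of 8.0, 8.05 and 7.99 in control and 8.35, 7.98 and 8.59 in siKDM1A cells. Replicates a and c of siKDM1A lay above the control arrays and replicate b lay below them. The log2 fold change was 0.29 (95% interval -0.02 to 0.61, limma adjusted p = 0.31), and with 1 array left out it ran from 0.15 without siKDM1A replicate c (limma adjusted p = 0.581) to 0.46 without replicate b (0.0524). The dimmer probe set, 203084_at, had a log2 fold change of 0.03 (95% interval -0.29 to 0.34), with siKDM1A replicate a above and replicates b and c below the control arrays.

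TGFB2, a ligand needed for heart and craniofacial development, came nearest to the threshold among the ligands that did not pass. Its brightest probe set, 228121_at, had log2 values of 7.68, 7.82 and 7.71 in control and 7.96, 8.30 and 8.28 in siKDM1A cells. Probe set 209909_s_at had 7.62, 7.51 and 7.58 in control and 7.75, 7.94 and 7.77 in siKDM1A cells, and 220407_s_at had 5.74, 6.14 and 6.12 in control and 6.27, 6.55 and 6.54 in siKDM1A cells. All siKDM1A arrays lay above all control arrays on each of these 3 probe sets. Their log2 fold changes were 0.44 (95% interval 0.19 to 0.69), 0.25 (0.05 to 0.45) and 0.45 (0.16 to 0.74), with limma adjusted p = 0.0513, 0.161 and 0.0819. The brightest, at 1.36-fold, passed under 6 of 14 alternatives, with adjusted p from 0.0202 (without siKDM1A replicate a, log2 fold change 0.55) to 0.0444 (probe sets above the lower quartile), and reached an adjusted p of up to 0.206 under the others. Of the remaining 2 probe sets, 209908_s_at was separated between the groups (log2 fold change 0.25) but lay under every array's lower quartile. The other, 220406_at, overlapped, with a log2 fold change of -0.03.

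TGFB3, known for its part in palate fusion, had 2 probe sets. The brighter, 209747_at, had log2 values of 5.34, 5.43 and 5.39 in control and 5.80, 5.37 and 5.80 in siKDM1A cells. Here siKDM1A replicate b lay among the control arrays, while replicates a and c lay above them. The log2 fold change was 0.27 (95% interval -0.01 to 0.55, limma adjusted p = 0.278). The dimmer probe set, 1555540_at, had 4.20, 4.26 and 4.01 in control and 4.59, 4.35 and 4.71 in siKDM1A cells, where the groups were separated and replicate b was again the lowest (log2 fold change 0.39, 95% interval 0.13 to 0.65, limma adjusted p = 0.0882). Without siKDM1A replicate b the log2 fold changes were 0.41 and 0.49, and both probe sets passed (limma adjusted p = 0.0451 and 0.0482). Without replicate a or c the log2 fold change of the brighter one was 0.20 both times (adjusted p = 0.513 and 0.485 in limma), and that of the dimmer one was 0.38 and 0.31 (0.192 and 0.199).

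The arrays of siKDM1A varied more than the control arrays for most member probe sets. The SD was larger in siKDM1A cells for 22 of the 26 (84.6%), compared with 61.7% of all probe sets. The median SD of the member probe sets was 0.07 in control and 0.18 in siKDM1A cells, and over all probe sets these were 0.10 and 0.13. For TGFB1 203085_s_at the SD was 0.03 in control and 0.31 in siKDM1A cells.

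FST, which encodes follistatin, rose on all 3 of its probe sets. Probe set 204948_s_at had log2 values of 11.64, 11.74 and 11.66 in control and 12.17, 12.22 and 12.43 in siKDM1A cells. Probe set 226847_at had 11.66, 11.54 and 11.61 in control and 11.97, 11.99 and 12.00 in siKDM1A cells, and 207345_at had 9.06, 9.03 and 8.89 in control and 9.75, 9.78 and 9.57 in siKDM1A cells. Both groups were far above the array median on all 3 probe sets, and the nearest arrays of the groups were 0.30 to 0.51 apart. The log2 fold changes were 0.60 (95% interval 0.38 to 0.81), 0.38 (0.20 to 0.57) and 0.71 (0.49 to 0.92), or 1.51-fold, 1.30-fold and 1.63-fold, with limma adjusted p = 0.00755, 0.0262 and 0.00326. The rise on 226847_at did not pass in any fit without 1 of the 6 arrays (adjusted p between 0.0557 and 0.114 in limma), while the other 2 probe sets passed in each of these fits.

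The one-way ANOVA that the methods name takes the spread of a probe set from its own 6 arrays. On the same values with Benjamini-Hochberg adjustment it called 5 of the 26 member probe sets higher and 0 lower. Those were both of BMP2 (ANOVA adjusted p = 0.0257 and 0.00203), INHBA 227140_at and 210511_s_at (0.0313 and 0.0384) and FST 226847_at (0.0464). The brightest FST probe set and 207345_at did not pass it (ANOVA adjusted p = 0.083 and 0.0618), so that by ANOVA 2 of the 10 genes, BMP2 and INHBA, were higher on their brightest probe set, and TGFB2 228121_at had an adjusted p of 0.206.

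The promoter windows of TGFB2, plus strand of chr1:218345086-218345385, and FST, plus strand of chr5:53480379-53480678, are printed because these genes, with INHBA, are the members with a window whose groups were separated on at least 2 probe sets. Capitals again mark motif matches.

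TGFB2: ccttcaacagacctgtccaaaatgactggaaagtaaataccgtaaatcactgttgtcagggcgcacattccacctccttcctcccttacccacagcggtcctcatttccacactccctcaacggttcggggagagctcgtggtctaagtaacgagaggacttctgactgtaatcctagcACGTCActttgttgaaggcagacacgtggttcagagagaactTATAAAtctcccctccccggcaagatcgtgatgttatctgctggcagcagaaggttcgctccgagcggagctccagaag

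FST: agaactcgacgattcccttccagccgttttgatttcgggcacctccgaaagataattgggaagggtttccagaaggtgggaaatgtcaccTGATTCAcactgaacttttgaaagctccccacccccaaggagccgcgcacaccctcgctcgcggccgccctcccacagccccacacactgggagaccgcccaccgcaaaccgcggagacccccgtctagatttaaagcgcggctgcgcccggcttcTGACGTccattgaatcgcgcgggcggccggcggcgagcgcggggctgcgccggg

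TGFB2 has a TATAAA at position -29 and a cAMP element core on the opposite strand, read here as ACGTCA, at position -71. FST has an AP-1 match, TGATTCA, at position -160 and a cAMP element core at position -4, and no TATAAA. The GC content was 51.7% for TGFB2 and 63.7% for FST, and no motif was present in all 3 printed windows. TGFB3, of which no probe set passed, also had matches in its second window, which is not printed. That window held a TATAAA at position -30 and a cAMP element core on the opposite strand at position -47. No motif matched in the windows of BMP4, BMP6, INHBB and TGFB1 or in the first TGFB3 window.

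**Figure D3:**
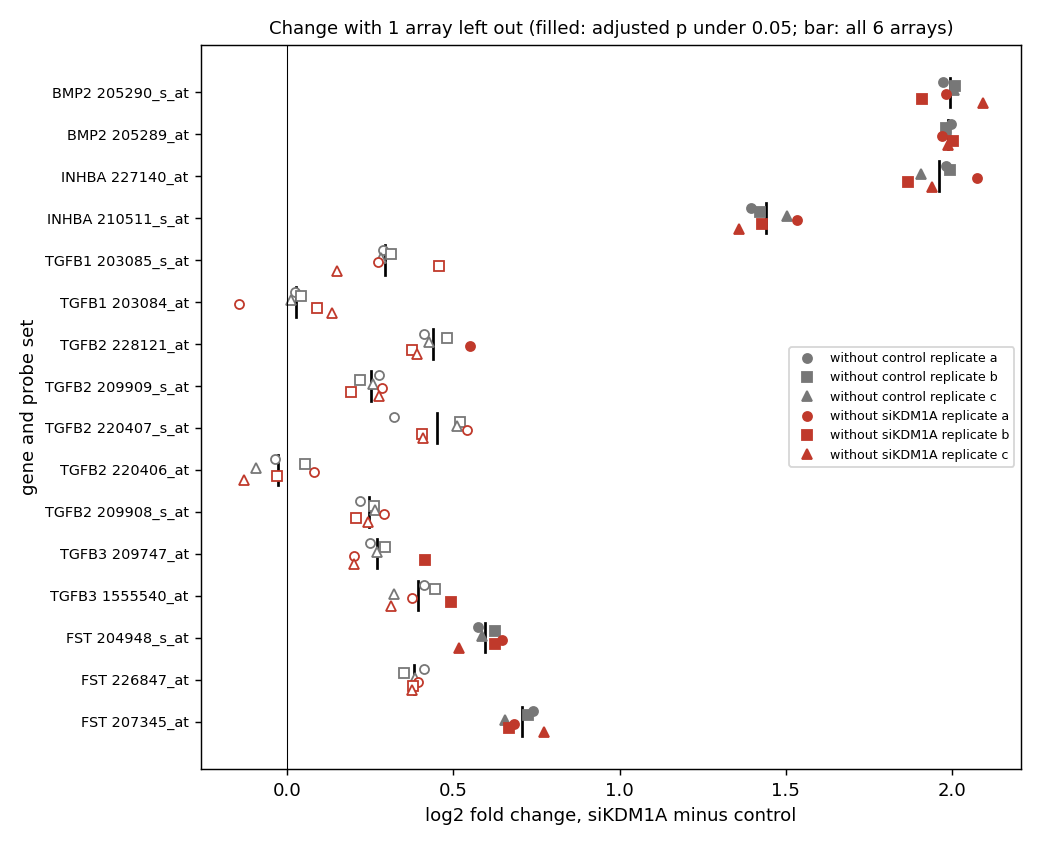
Log2 fold change (siKDM1A minus control, horizontal axis) of the 16 probe sets that were called or belong to TGFB1, TGFB2 or TGFB3 when 1 array is left out; the symbol gives the array left out, filled symbols had an adjusted p under 0.05 and vertical bars give the value with all 6 arrays. The symbols of BMP2 and INHBA are all filled, those of FST 226847_at are all open, and the filled symbols of TGFB3 are those without siKDM1A replicate b.

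The genes whose pattern over the 6 arrays was most like that of BMP2 and of INHBA were searched among 19774 genes, by the root mean square difference of log2 values after the control mean of each was taken off. For BMP2 these were PTX3, a secreted pattern recognition protein (0.0355), ANKRD22 (0.10) and STEAP1, a metalloreductase (0.127). For INHBA these were LINC00973 (0.0731), STEAP1 (0.131) and PTX3 (0.152). PTX3 had a log2 fold change of 2.01 and LINC00973 of 1.90, so closeness here is mainly likeness in the size of the difference between the groups.

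**Figure D4:**
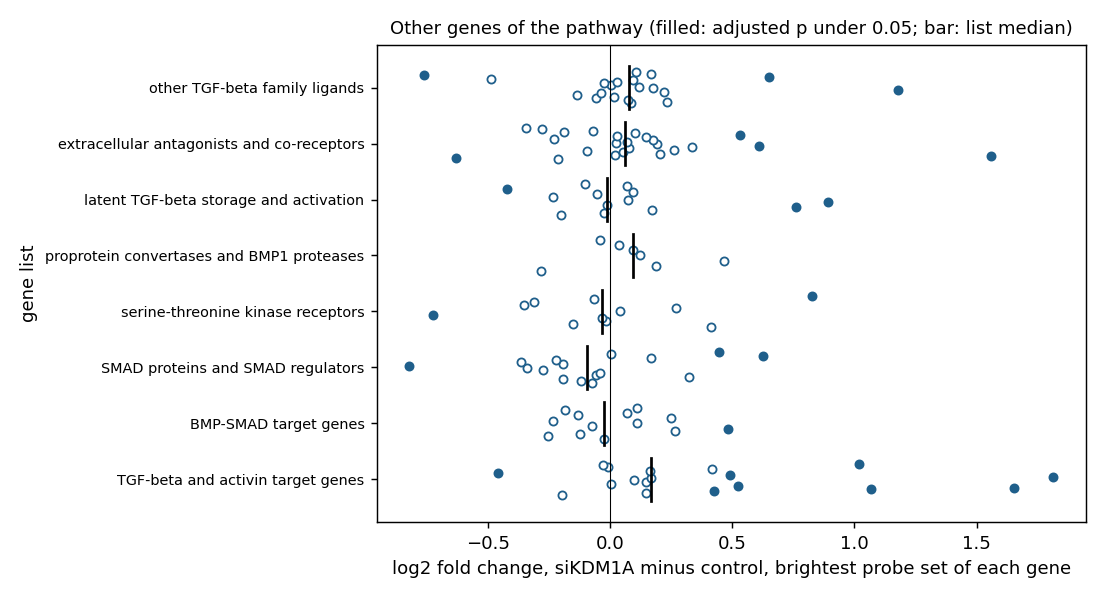
Log2 fold change (siKDM1A minus control, horizontal axis) of the brightest probe set of each measured gene in 8 lists of the same pathway (vertical axis); filled points had a limma adjusted p under 0.05 and bars mark list medians. Of 122 genes 18 have filled points above 0 and 6 below, and the convertases have no filled point.

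Of 132 other genes of the pathway in 8 lists, 122 had a probe set that names them alone, and of these 18 were higher, 6 lower and 98 did not pass (brightest probe set, limma adjusted p under 0.05). Over all genes 3.45% were higher and 5.46% lower by the same rule. The lists, like the members, were chosen with earlier results of these data known. Their counts are therefore also a description and no independent support. The median log2 fold change of the list genes was 0.04, beside 0.01 over all genes, and by ANOVA 8 of them were higher and 1 lower. Of 20 other ligands of the family, 2 were higher, 1 lower and 17 did not pass (median 0.08). GDF15, a stress-induced ligand that acts through GFRAL in the hindbrain, rose 2.26-fold (limma adjusted p = 0.000158) on 1 of its 3 probe sets. INHBE, the activin beta E subunit, rose 1.57-fold from a level below the array median (limma adjusted p = 0.023), and lost the call without either of siKDM1A replicates a and b or control replicates a and c (up to 0.0856). LEFTY1, an inhibitor of Nodal signaling, fell by a log2 value of 0.76 (limma adjusted p = 0.0107, and 0.0593 without control replicate c).

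Of 24 extracellular antagonists and co-receptors, 3 were higher, 1 lower and 20 did not pass (median 0.06). BMPER, a secreted BMP-binding protein, rose most, with log2 values of 3.70, 3.75 and 3.87 in control and 5.45, 5.55 and 5.00 in siKDM1A cells. Its groups stood well apart, 2.95-fold (limma adjusted p = 0.000414, ANOVA adjusted p = 0.057), although its control level was near the lower quartile of the arrays. FSTL1, a follistatin-like glycoprotein, rose 1.53-fold (limma adjusted p = 0.0048) on 1 of 3 probe sets. RGMB, a BMP co-receptor, rose 1.45-fold on the brightest of 4 probe sets, 2 of which passed (limma adjusted p = 0.0149, and 0.0803 without control replicate c). The proteoglycan gene BGN fell by a log2 value of 0.63 (limma adjusted p = 0.0265) and lost the call without siKDM1A replicate b or c or control replicate a or c (up to 0.107).

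Of 13 genes of latent TGF-beta storage and activation, 2 were higher, 1 lower and 10 did not pass (median -0.01). LTBP1, which tethers latent TGF-beta to the matrix, had log2 values of 8.96, 9.02 and 9.01 in control and 9.84, 9.97 and 9.86 in siKDM1A cells. The groups did not overlap, and the rise was 1.86-fold (limma adjusted p = 0.000519) on 1 of 2 probe sets. ITGB8, an integrin subunit that helps to release TGF-beta, rose 1.70-fold on 1 of 5 probe sets (limma adjusted p = 0.0136, and 0.0653 without control replicate c). PLAT, the tissue plasminogen activator, fell by a log2 value of 0.42 (limma adjusted p = 0.0373) and lost the call without any 1 of 5 arrays, siKDM1A replicates a and b and the 3 control arrays (up to 0.169). None of the 7 convertases and BMP1-type proteases, which cut ligand precursors and chordin, passed in either direction (median 0.09).

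Of 11 receptors, 1 was higher, 1 lower and 9 did not pass (median -0.03). TGFBR2, the type II receptor of the TGF-betas, rose on both of its probe sets, 1.77-fold on the brightest (limma adjusted p = 0.000741). ACVR2B, a type II receptor of activins, fell by a log2 value of 0.72 (limma adjusted p = 0.00298) on 1 of 3 probe sets. Of 16 SMAD genes and SMAD regulators, 2 were higher, 1 lower and 13 did not pass (median -0.10). SMAD5, a BMP-branch SMAD, fell by a log2 value of 0.82 (limma adjusted p = 0.00118) and passed on 2 of 5 probe sets. This is a change in RNA and does not measure the active protein. On western blots of ONS-76 cells the paper reports more phosphorylated SMAD5 protein after the knockdown. SMURF2, a ubiquitin ligase of SMADs and receptors, rose 1.55-fold (limma adjusted p = 0.00372) and passed on 2 of 4 probe sets, and ZFYVE9, an anchor of SMAD2 and SMAD3, rose 1.36-fold (0.0131) on 1 of 2. The call of ZFYVE9 was lost without any 1 of the control arrays (adjusted p up to 0.0616).

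The target genes of the 2 branches were counted separately. Of 13 BMP-SMAD target genes, 1 was higher, 0 were lower and 12 did not pass (median -0.03). The one that rose was ID1, a dominant-negative helix-loop-helix factor, by 1.40-fold (limma adjusted p = 0.0151, up to 0.0674 without control replicate a or c). Of 18 TGF-beta and activin target genes, 7 were higher, 1 lower and 10 did not pass (median 0.17). Among all genes, 3.45% were higher and 5.46% lower by the same rule. Both target lists were chosen with earlier results of these data known. IL11, a cytokine of the IL6 family, rose 3.52-fold (limma adjusted p = 7.5e-05), with log2 values of 6.23, 6.46 and 6.45 in control and 8.24, 8.34 and 7.99 in siKDM1A cells. The matricellular genes CCN2 and CCN1 rose 3.15-fold and 2.10-fold (limma adjusted p = 0.000277 and 0.000295), and TGM2, a transglutaminase, rose 2.03-fold (0.000328) on 1 of 4 probe sets. The gene that fell, named after its values were seen, was PMEPA1, an inhibitor of TGF-beta signaling (log2 fold change -0.46, limma adjusted p = 0.0373, 2 of 3 probe sets), and it did not pass without any 1 of 5 arrays, siKDM1A replicates a and b and the 3 control arrays (up to 0.13). CDKN1A, JUNB and BHLHE40, also named after their values were seen, were higher as well. Each lost the call by ANOVA and in some fits without 1 array (limma adjusted p up to 0.0721, 0.0678 and 0.101). The count of higher TGF-beta and activin target genes was 4 without control replicate b or c and 3 by ANOVA. These genes are also targets of other pathways, and no difference between the lists was tested.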

How the data were processed

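RNA of 3 siKDM1A and 3 control cultures of ONS-76 was measured on 1 array each. The deposited log2 values of 54675 probe sets were made by the authors with Partek's RMA. RMA gives the arrays a common distribution of probe intensities, so a shift shared by most genes is largely removed. Scanner files and detection calls were not used here. After 62 Affymetrix controls were left out, 54613 probe sets entered a two-sided test with limma 3.58.1 under R 4.3.3 (lmFit, then eBayes without trend), with Benjamini-Hochberg adjustment over all of them and a threshold of 0.05. The platform annotation named 1 gene for 41091, several for 1801 and none for 11721 probe sets, and a gene was counted on its brightest probe set. Members and lists were chosen with earlier results of these data known. Named were all members, KDM1A, KDM5A, up to 4 called genes per list with the largest change, and the 3 nearest patterns. Promoter sequences came from RefSeq (GRCh38.p14), matched by symbol. The fit was tested on simulated data. Groups were mapped by the labels. With 3 arrays per group, their number limits the precision. Alternatives were other normalizations, filters on dim probe sets, a variance trend, ANOVA, a replicate block and each array left out.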

Additional observations from a re-analysis of the deposited data

How the results depend on the processing

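Of 353 alternative values of the member probe sets, 335 kept their side of the threshold, 9 lost the call, 9 gained it and 0 reversed. The calls of BMP2 and of 2 INHBA probe sets held under all 14 alternatives. The FST probe sets 204948_s_at and 207345_at lost theirs only under ANOVA, and 226847_at lost its call without any 1 array and with the replicate block (adjusted p = 0.0574). Over all settings 5 to 8 member probe sets and 2 to 4 member genes were higher and 0 lower. Over all probe sets the test called 1193 higher and 2037 lower, ANOVA 275 and 401, and leaving out 1 array 609 to 1103 and 694 to 1563. Among the fits without 1 array, all 3 that dropped a control array moved both counts by over 1.5 times: replicate a (698 and 1101), b (712 and 1022) and c (609 and 694); 1253 were lower without siKDM1A replicate a. Of the pathway list genes, 18 were higher and 6 lower with all 6 arrays, 8 and 1 by ANOVA, 10 to 20 and 2 to 5 with 1 array left out, and 3 were lower after cyclic loess. The cause of these shifts was not tested.

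The replicate letters were not used as pairs in the main fit. Deviations of same-lettered arrays correlated at 0.11 (a), 0.23 (b) and -0.13 (c), and those of differently lettered arrays at -0.32 to 0.18. These values do not settle whether the letters pair the cultures. With the letter as a replicate block, 1080 probe sets were higher and 1639 lower, 7 member probe sets and 3 member genes were higher, 18 list genes were higher and 5 lower, and TGFB2 220407_s_at passed (adjusted p = 0.035).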
